A study of Lachancea waltii with 4 samples.

Results

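The genes described here are the outermost genes of the 8 large contigs of the budding yeast Kluyveromyces waltii, listed as Lachancea waltii in the labels. They were chosen from the gene identifiers alone: the text before the dot was taken as the contig and the number after it as the order of the genes, and for each contig held by 200 or more genes the 10 lowest and the 10 highest numbers were taken. This gave 160 genes at 16 ends, of 5193 genes on the array. They were set against the 4666 interior genes of the same 8 contigs, and the remaining 367 genes lie on smaller contigs, so that 54 contigs in all have genes on the array. The numbers run on from contig to contig, and neither coordinates nor gene names for these identifiers were used here.

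Total RNA came from strain NCYC 2644, grown at 30 °C in rich medium to mid-log phase, and was labelled with Cy3. Each of 4 replicate RNA samples was hybridised against genomic DNA of that strain, labelled with Cy5, on a two-colour Agilent array with 2 probes per gene. The 4 samples form 1 group without a second condition, all 4 arrays lay on 1 slide, and the methods call the replicates biological. The level of a gene is the log2 ratio of its RNA signal to its genomic DNA signal, relative to the median gene of the array, so that a level of -1 is 2-fold below the median gene.

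Ends of chromosomes have a distinctive biology in yeasts. In Saccharomyces cerevisiae, genes next to telomeres can be silenced by Sir proteins, which spread along nucleosomes from the chromosome end, and the subtelomeric regions carry families of related genes that are found at several ends, with members used for sugar transport, sugar metabolism and cell surface adhesion among them. A contig is a stretch of assembled sequence, and its end may be a chromosome end or only a place where the assembly stopped. Which of these applies to each of the 16 ends is not given in the sources used here.

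Gene probes had a median RNA signal of 1191 to 1713.5 units across the 4 arrays and the median genomic DNA signal 7917 to 9640 units, against 27.5 to 37 and 7.5 to 15.5 units in 77 negative controls. No spot was saturated (0 on each array), and Pearson's r between arrays, taken over genes, lay between 0.991 and 0.996. All of the 160 end genes gave a level. For single genes the values of each array, the mean and the standard deviation (SD, n = 4) are given with arrays centred on their medians, whereas calls and medians over genes rest on quantile normalised arrays.

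Genes at the contig ends had low RNA. Their median level was -1.78, -1.61, -1.68 and -1.64 on arrays 1 to 4, against 0.06 for the interior genes (mean over arrays). The difference between the medians was -1.84, -1.67, -1.75 and -1.70, with a mean of -1.74 ± 0.07 (SD, n = 4), or 3.34-fold lower at the ends. All 4 arrays thus gave the end genes a median more than 3-fold below that of the interior, and the spread between arrays was small beside the difference. Processing moved the size of the difference. It was -0.89 after normexp background correction followed by loess within each array (called loess from here on). In the log ratio of the scanner software it was -1.11. Loess takes out the trend of the ratio with the mean of both signals, so it can also take out part of the level itself. No p is given for this difference, because an exact two-sided test on 4 arrays cannot reach 0.05 and genes are not replicates.

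Both channels took part, but unequally. The RNA signal of the end genes was lower than that of the interior genes by a median of -1.66 ± 0.07 (SD, n = 4), which is 3.15-fold. Their genomic DNA signal was higher by 0.15 ± 0.02, or 1.11-fold. Most of the difference in level therefore lay in the RNA channel. In RNA from whole cultures, expression in fewer cells and less RNA per cell cannot be told apart.

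Of the 160 end genes, 99 (61.9%) were called more than 2-fold below the median gene by limma's treat test (adjusted p under 0.05), where the share over all 5192 genes tested was 21%. The share among interior genes was 18.6% (868 of 4665) and among genes of the smaller contigs 33.8%. Only 13 end genes (8.12%) were called more than 2-fold above the median gene, against 23.1% of all genes and 24.1% of interior genes, and 48 were called in neither direction. End genes made up 3.08% of all genes but 9.07% of all genes called below. Of the 100 lowest levels on the array, 26 belonged to end genes, 50 to interior genes and 24 to genes of smaller contigs. Irrespective of the calls, 126 end genes lay under the median gene on all 4 arrays and 29 lay over it on all 4. The same counts over all genes are not given here, so these 2 counts do not set the ends against the array.

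**Figure D1:**
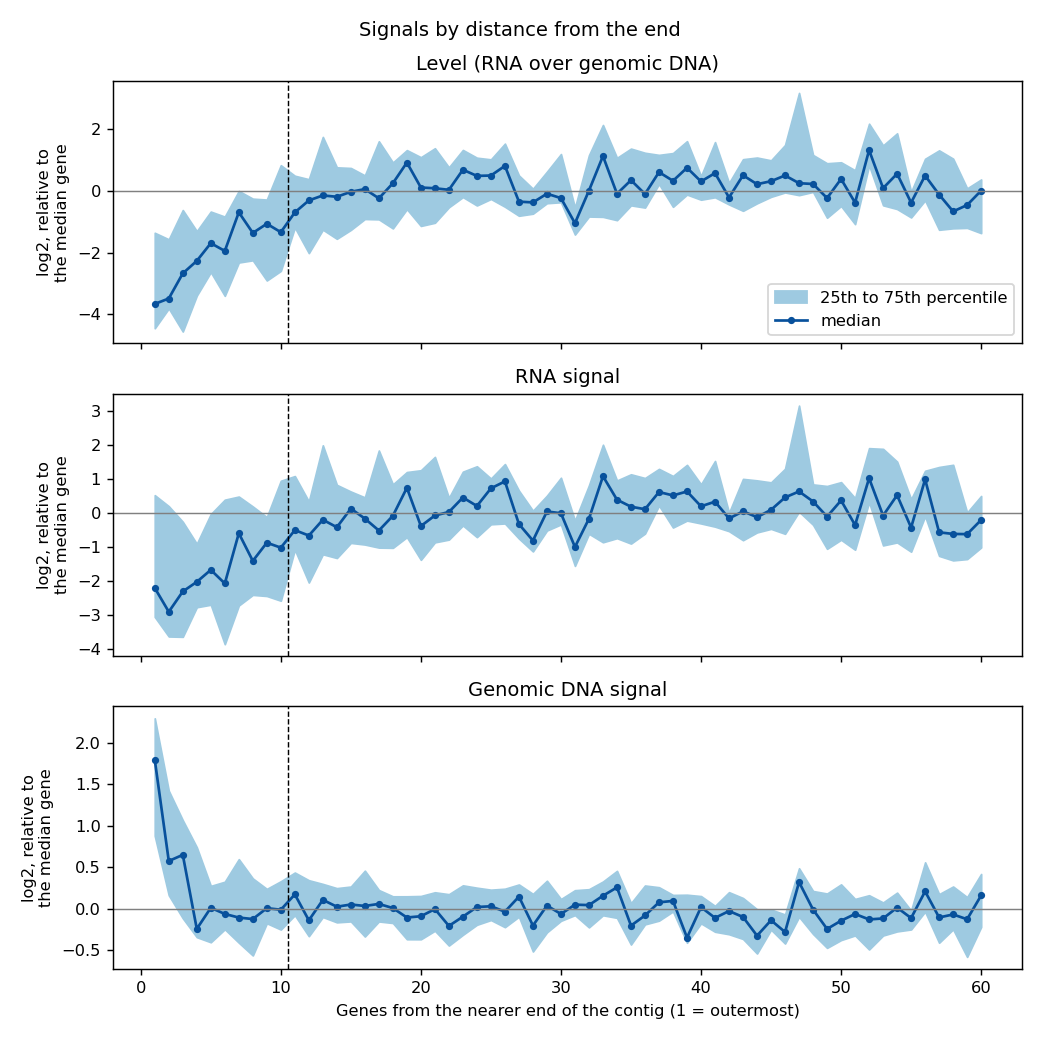
Median (line and points) and quartiles (band) of the level, the RNA signal and the genomic DNA signal, on a log2 scale relative to the median gene, for genes at each place from 1 to 60 counted from the nearer end of a contig (16 genes per place, mean of 4 arrays). The dashed line separates the end genes (1 to 10) from the interior. The median level climbed from -3.66 at the outermost gene to -0.71 at the 11th, while the genomic DNA signal was raised mainly at the outermost 3 genes.

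The low levels were concentrated at the very ends. The outermost genes had a median level of -3.66 and 12 of 16 were called below, and the next genes in had a median of -3.49 with 13 of 16 called below. The median was -2.67 at the third gene, -2.27 at the fourth and -1.70 at the fifth. In the RNA signal alone the outermost gene was not the lowest, with medians of -2.20, -2.90, -2.31, -2.02 and -1.67 at genes 1 to 5. The genomic DNA medians at genes 1 to 3 were 1.79, 0.57 and 0.65, so the steepest part of the gradient in level also held a genomic DNA part. From the sixth to the tenth gene the median levels lay between -1.95 and -0.70 without a steady order. Beyond the members, the median was -0.71 at gene 11 and -0.32 at gene 12, so the boundary of 10 genes set by the rule falls on a gradient and not at a step. With 16 genes at each place, neighbouring places overlapped widely in their middle range, for example -4.45 to -1.36 for gene 1 and -3.80 to -1.58 for gene 2.

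In classes of distance the same gradient was seen on each array. Genes 1 to 5 had a median level of -2.32 ± 0.08 (SD over 4 arrays), and 70.0% of these 80 genes were called below and 3.75% above. Genes 6 to 10 had a median of -1.30 ± 0.06, with 53.8% below and 12.5% above. Genes 11 to 20, already interior, had a median of -0.06 ± 0.02, with 27.5% below and 21.2% above. The 480 genes at places 21 to 50 reached 0.19 ± 0.02 with 14.0% called below, against 19.8% at places 51 to 100 and 18.6% farther in. The order of the first 3 classes was the same on all 4 arrays, and their ranges over arrays did not overlap.

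**Figure D2:**
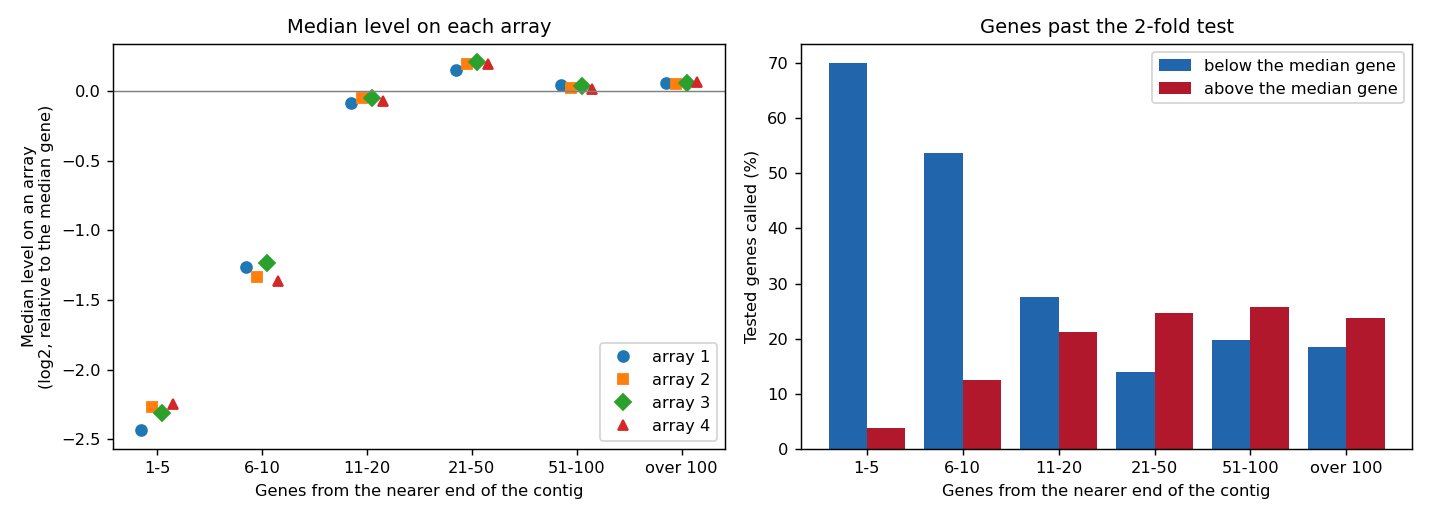
Left, the median level of the genes in each class of distance from the nearer contig end (log2, relative to the median gene), with 1 symbol for each of the 4 arrays. Right, the percentage of tested genes in each class called more than 2-fold below or above the median gene. On all 4 arrays genes 1 to 5 lay lowest, with 70.0% called below, and the shares below and above came to 27.5% and 21.2% at genes 11 to 20.

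The RNA signal alone gave the same order of these classes, though not of single places within the first. Its medians were -2.12 at genes 1 to 5, -1.15 at genes 6 to 10 and -0.24 at genes 11 to 20. With the RNA signal used in place of the ratio, 91 of 160 end genes were called below. The share of all genes called in that setting is not given here, so this count does not set the ends against the array. Ends with low numbers had a median level of -2.34 (59 of 80 genes below, 3 above) and ends with high numbers one of -1.19 (40 below, 10 above). The numbering carries no orientation known here.

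The 16 ends were not alike. At 15 of them the median level of the 10 genes lay under the interior median of the same contig on all 4 arrays. The low end of Kwal_14, with a median of -3.93 ± 0.09 (SD, n = 4) and 9 of 10 genes below, and the low end of Kwal_26, with -3.70 ± 0.06 and 10 of 10 below, were the lowest. Then came the high end of Kwal_23 (-3.04 ± 0.05), the low end of Kwal_47 (-2.69 ± 0.06) and the low end of Kwal_23 (-2.51 ± 0.12), each with 9 genes below. At 10 ends more than 5 of the 10 genes were called below, and 8 ends had no gene called above. In the RNA signal alone, 14 of the 16 ends lay under the interior of their contig. The low end of Kwal_55 lay 0.65 ± 0.38 over it in RNA, and the high end of Kwal_55 differed by only -0.23 ± 0.11. The genomic DNA signals of these ends were 2.03 and 1.39 over the interior.

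The exception in level was the high end of Kwal_27, whose median level was 0.32, 0.94, 0.39 and 0.62 on arrays 1 to 4. It lay 0.55 ± 0.27 (SD, n = 4) over the interior of its contig, and 3 of its 10 genes were called above and 2 below. Its RNA signal was 1.55 ± 0.41 over the interior. The high ends of Kwal_33 (-0.20 ± 0.20) and Kwal_14 (-0.30 ± 0.04) and the low end of Kwal_27 (-0.45 ± 0.19) also had medians close to those of their interiors, with 4, 2 and 4 genes called below. At the high ends of Kwal_33 and Kwal_14 the genes called below were the outermost 4 and 2. At the low end of Kwal_27 they were genes 1, 2, 4 and 5, so low outermost genes were present at these ends too. The ends of a single contig could thus differ widely, as in Kwal_14, where the low end held 9 genes below and the high end 2.

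**Figure D3:**
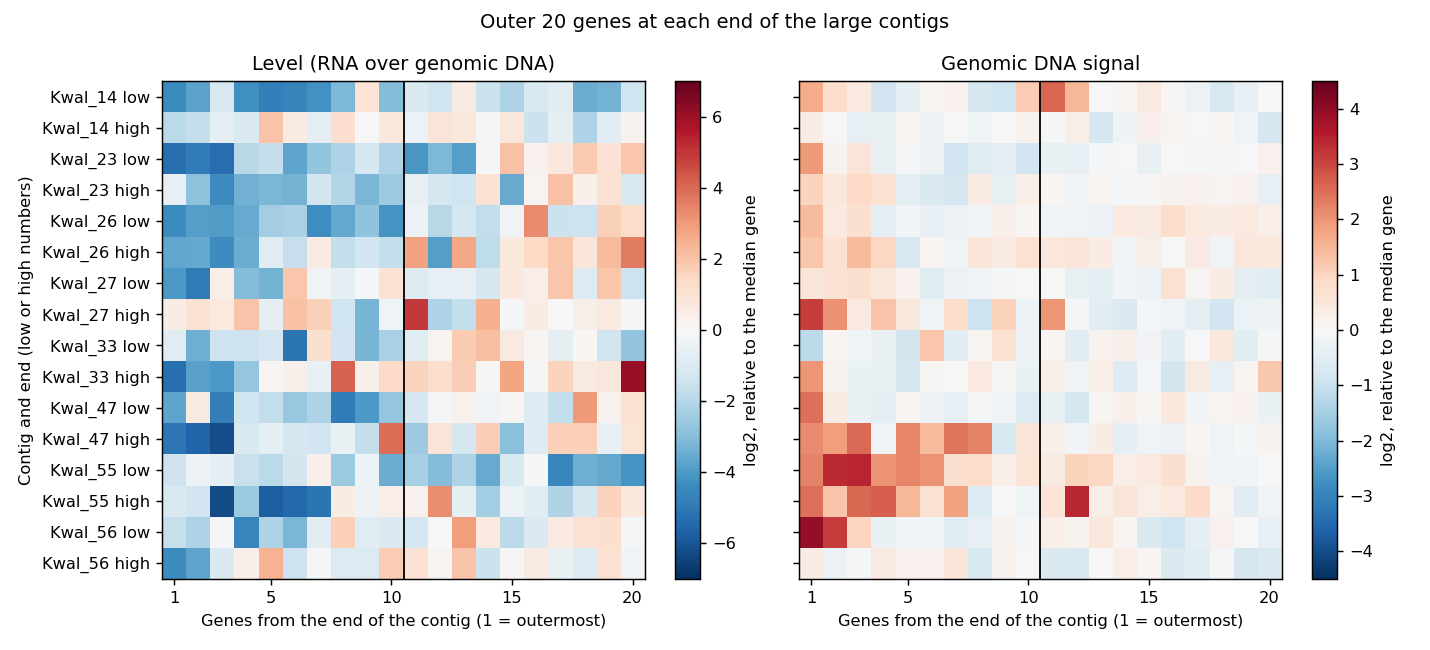
Level (left) and genomic DNA signal (right) of the outer 20 genes at each of the 16 ends, 1 row per end, as log2 relative to the median gene (mean of 4 arrays, blue below and red above). The vertical line separates the 10 end genes from the interior genes that follow. Blue cells fill most of the left panel at genes 1 to 5, the high end of Kwal_27 stands out as pale or red, and the red cells at the outer edge of the right panel are concentrated in Kwal_47 high, both ends of Kwal_55 and the outermost genes.

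How far the low stretch reached was also uneven. Counted inwards from the outermost gene, the first gene called above came between place 4 (high end of Kwal_27) and place 36 (low end of Kwal_55), with a median between 10 and 11 over the 16 ends. At the low end of Kwal_26 all 10 end genes were called below, and the first 15 genes lay under the median gene. At the low end of Kwal_47, in contrast, the outermost gene was low but its neighbour lay over the median gene. In 68 of 144 adjacent pairs of end genes (47.2%) both genes were called below, where the share of single end genes below, squared, is 38.3%. In the interior both were below in 195 of 4656 pairs (4.19%), and the squared share is 3.46%. The median difference in level between neighbours was 1.09 at the ends and 1.40 in the interior.

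The outermost genes fell into a very low and a nearer group. The lowest were Kwal_23.2767, Kwal_33.15651 and Kwal_47.19375. Kwal_23.2767 had levels of -5.43, -5.06, -5.34 and -5.23 on arrays 1 to 4, a mean of -5.27 ± 0.16 (SD, n = 4), 38.5-fold below the median gene (limma adjusted p = 5.69e-11). Kwal_33.15651 had -5.54, -4.97, -5.29 and -5.20 (-5.25 ± 0.23, limma adjusted p = 6.04e-11). Kwal_47.19375 had -5.36, -4.93, -4.92 and -5.19 (-5.10 ± 0.21, limma adjusted p = 1.15e-10). The ranges of these 3 genes overlapped, and, as described further on, they carry identical probes, so that they are not separate measurements.

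Kwal_14.699, the outermost gene of its low end, had -4.85, -4.09, -4.66 and -4.24 (-4.46 ± 0.35). Kwal_26.6639 had -4.48, -4.41, -4.42 and -4.36 (-4.42 ± 0.05), and Kwal_56.24852 had -4.40, -4.48, -4.34 and -4.43 (-4.41 ± 0.06). These 3 genes were between 21.3-fold and 22.0-fold below the median gene and did not differ beyond their spread. Kwal_27.9650 had -4.47, -3.39, -4.39 and -3.84 (-4.02 ± 0.51). Kwal_26.9643 had -3.89, -3.54, -3.73 and -3.44 (-3.65 ± 0.20). The latter gene shares the sequence of its probes in part with genes of small contigs.

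Kwal_47.16550 had the largest SD of the end genes well above background, with -4.56, -2.88, -4.08 and -3.15 (-3.67 ± 0.79), and from its RNA signal alone it was not called below (-1.16, limma adjusted p = 0.534). Arrays 2 and 4 lay over arrays 1 and 3, and its RNA signal was 297, 1471, 434.2 and 952 units. The gene beside it, Kwal_47.16561, had -0.01, 1.12, 0.18 and 1.20, with the same arrays high. Kwal_47.16561 and the further genes named beside members of the rule were picked after their values were seen. Of the 160 end genes, 19 (11.9%) had an SD over 0.3, against 109 interior genes (2.34%). Arrays 2 and 4 were both over arrays 1 and 3 in 12 of the 19 and both under them in 5 (49 and 43 of the 109 interior genes). The test takes the 4 arrays as independent.

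Not every outermost gene was very low. Kwal_14.2632 was only moderately low, with -1.89, -1.89, -2.02 and -1.82 (-1.90 ± 0.09, limma adjusted p = 3.41e-07). Kwal_56.22277 (-2.01, -1.34, -1.66 and -1.50) and Kwal_55.19500 (-2.15, -1.17, -1.54 and -0.98) were called below with means of -1.63 ± 0.29 and -1.46 ± 0.52, but their RNA signals were 5.06-fold and 1.73-fold over the median gene. The call of Kwal_55.19500 (limma adjusted p = 0.0276) was lost without array 1 (adjusted p = 0.0785) and without array 3 (adjusted p = 0.0921). The low ratio of these 2 genes thus came with a high genomic DNA signal and not with a low RNA signal.

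The other outermost genes passed the test in neither direction. Kwal_55.22271 had -1.24, -0.90, -0.74 and -1.44 (-1.08 ± 0.32, limma adjusted p = 0.504), again with a genomic DNA signal 5.57-fold over the median. Kwal_33.12946 had -0.90, -0.68, -1.08 and -0.85, and Kwal_23.6600 had -0.62, -0.48, -0.63 and -0.54. The former was at 1.22 after loess and 0.91 in the scanner's log ratio, and the latter at 0.44 from its RNA signal alone. Kwal_27.12860 was the only outermost gene over the median gene, with 0.35, 0.78, 0.53 and 0.35 (0.50 ± 0.20), and its RNA and genomic DNA signals were 12.3-fold and 8.62-fold over the median. After loess its level was -5.02, in the scanner's log ratio -3.13 and with normexp -0.76, so its side of the median gene depended on the normalization.

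**Figure D4:**
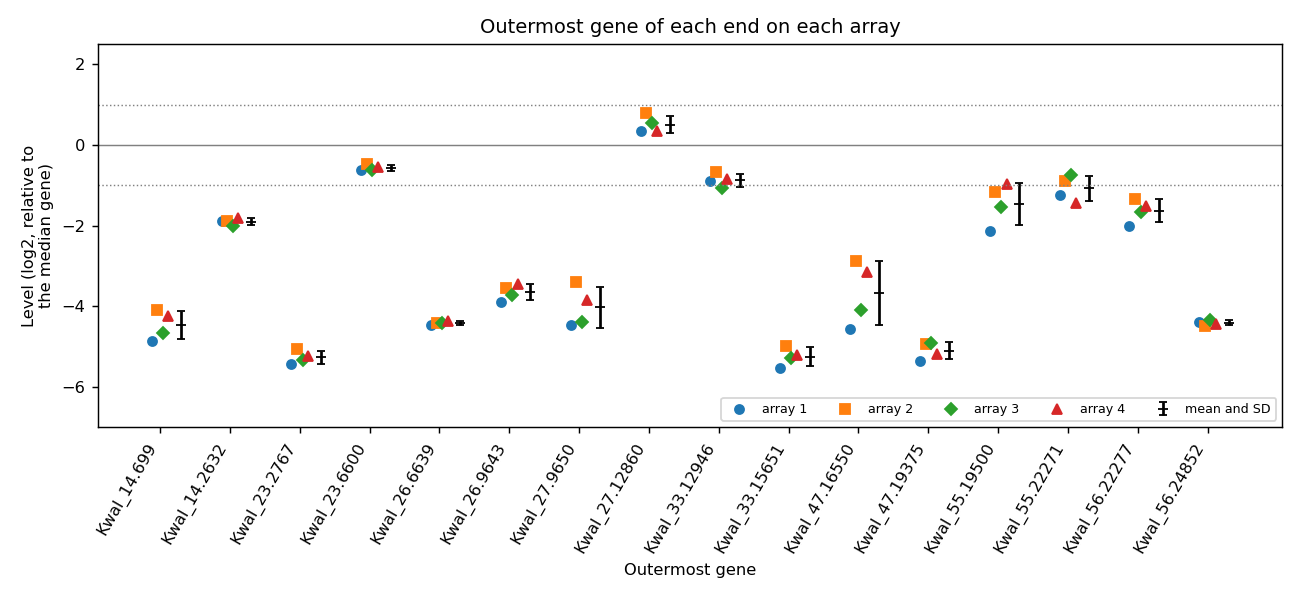
Level of the outermost gene of each of the 16 ends on each of the 4 arrays (symbols; log2, relative to the median gene, arrays centred on their medians), with the mean and SD over the arrays (black). The dotted lines mark 2-fold below and above the median gene. In 12 of the 16 genes the level was called below the lower line, 3 genes lie under -5 and only Kwal_27.12860 lies over 0.

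The longest unbroken run of genes called below among the end genes was the whole low end of Kwal_26. Its 10 genes, from Kwal_26.6639 to Kwal_26.6684, had mean levels between -4.42 ± 0.05 and -2.27 ± 0.15. Kwal_26.6641 had -4.02, -3.77, -3.98 and -3.76, Kwal_26.6645 had -3.78, -3.82, -3.85 and -4.10, and Kwal_26.6651 had -3.53, -3.50, -3.47 and -3.65. Kwal_26.6658 (-2.58, -2.31, -2.38, -2.48) and Kwal_26.6664 (-2.32, -2.07, -2.43, -2.25) were the least low of the run. Kwal_26.6669 (-4.40, -4.43, -4.26, -4.42) was again at the level of the outermost gene, so the run did not rise evenly inwards.

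The last genes of the run were Kwal_26.6673 (-3.65, -3.60, -3.53, -3.52), Kwal_26.6680 (-2.72, -2.73, -2.87, -2.92) and Kwal_26.6684 (-4.20, -3.92, -4.35, -3.96). Their genomic DNA signals were 0.918-fold, 1.17-fold and 1.07-fold that of the median gene. In these 3 genes the low ratio was therefore a low RNA signal, 12.9-fold under the median gene in the first and 5.92-fold in the second. The RNA signal of Kwal_26.6684 was well above background on 3 of the 4 arrays and that of Kwal_26.6669 on 1, so that no fold is given for them. All 10 limma adjusted p-values of the run lay between 1.09e-10 and 1.31e-07. After loess 5 of the 10 genes no longer passed the test, namely Kwal_26.6651 (-0.15), Kwal_26.6658 (-0.49), Kwal_26.6669 (-0.49), Kwal_26.6673 (-0.66) and Kwal_26.6664 (0.01). In the scanner's log ratio Kwal_26.6658 (-0.98) and Kwal_26.6664 (-0.67) did not.

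Few end genes were highly expressed, and those lay mostly away from the outermost places. Kwal_33.15597, 8 genes from the end, had levels of 4.15, 4.03, 4.16 and 3.99 (4.09 ± 0.09, 17.0-fold over the median gene, limma adjusted p = 1.38e-10). Kwal_47.19321, 10 genes from the end, had 3.96, 3.91, 4.01 and 3.87 (3.94 ± 0.06, limma adjusted p = 1.29e-10). The ranges of these 2 genes over the arrays overlapped, with the former higher on each array. Kwal_56.24815, 5 genes from the end, had 2.47, 2.53, 2.48 and 2.37 (2.46 ± 0.07, limma adjusted p = 1.19e-08). After loess these 3 genes no longer passed the test, at 0.86, 0.58 and 0.77 (limma adjusted p = 1 each), and Kwal_56.24815 was at 0.97 in the scanner's log ratio, also without a call. Of the 13 genes called above, 10 were at places 6 to 10 and 3 at places 1 to 5.

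The longest run of genes called above held only 2 genes, both at the exceptional high end of Kwal_27. Kwal_27.12817 had 1.48, 1.92, 1.48 and 1.79 (1.67 ± 0.22), and Kwal_27.12821 had 1.91, 2.14, 1.88 and 2.23 (2.04 ± 0.17). The level of the former was -1.05 after loess and -0.10 in the scanner's log ratio, so that its direction depended on the normalization, and with normexp it was 1.09 without a call (limma adjusted p = 0.201). Kwal_27.12835, the third gene called above there, had 1.54, 2.43, 1.52 and 2.41 (1.97 ± 0.51) and is read by probes identical to those of Kwal_8.605, on a small contig.

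The lowest end genes that met the rule for named genes were at or near 3 contig ends. Kwal_55.22265, the third from its end, had -6.38, -5.94, -6.25 and -6.39 (-6.24 ± 0.21), 75.6-fold below the median gene (limma adjusted p = 6.04e-11). Its RNA signal was 88.8, 196, 98.0 and 108.2 units and its genomic DNA signal 48556, 67946, 49910 and 51702 units. Thus a 12.4-fold lower RNA signal and a 6.04-fold higher genomic DNA signal together gave its ratio. Kwal_47.19372, second from its end, had -5.67, -5.38, -5.63 and -5.79 (-5.62 ± 0.17, limma adjusted p = 5.69e-11), with 13.2-fold lower RNA and 3.67-fold higher genomic DNA. Kwal_47.19366, next to it, was lower on each array (-6.14, -6.06, -6.48, -6.26) but rests on 1 probe.

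Some of these genes were at the limit of detection. The RNA signal of 12 end genes (7.50%) was not well above background on every array, against 0.686% of interior genes, and all 12 were called below. For 4 of them, Kwal_14.728, Kwal_23.2782, Kwal_47.16564 and Kwal_56.22295, it was not well above background on any array, and these made up 4 of the 9 such genes on the array. Their levels are only bounds. A low RNA signal by itself lowers the level, so the calls of the 12 are not a separate result. Without all genes not well above background on every array, 88 of 148 end genes (59.5%) were called below. The shares of all genes called below, among such genes and without them, are not given here. The 12 and the 88 therefore do not set the ends against the array.

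With probes of equal response, genomic DNA should give each single-copy gene a similar signal, and a probe with several targets in the genome gives more. The genomic DNA signal was more than 2-fold over the median gene in 34 of the 160 end genes (21.2%), against 2.59% of interior genes and 25.9% of genes of the smaller contigs. It was more than 4-fold over the median in 19 end genes. The outermost genes led, with 11 of 16 over 2-fold, and the share fell from 32.5% at genes 1 to 5 to 10% at genes 6 to 10 and 3.75% at genes 11 to 20. At 12 of the 16 ends the median genomic DNA signal exceeded that of the interior.

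This signal was raised over several adjacent genes at several ends. At the low end of Kwal_55, the first 6 genes (Kwal_55.19500 to Kwal_55.19514) had genomic DNA signals 4.07-fold to 10.6-fold over the median gene. Kwal_55.19506 reached 87728, 106079, 95569 and 90455 units and Kwal_55.19504 reached 68255, 123376, 94900 and 91102 units. The RNA signals of these 6 genes were over the median gene as well, and their levels lay between -1.87 and -0.44. These 6 genes thus had a low ratio without low RNA. Of the other genes of this end, Kwal_55.19536 and Kwal_55.19547 had low RNA (-1.75 and -2.88, log2). Kwal_55.19534 (1.11) and Kwal_55.19541 (-0.08) did not. At the high end of Kwal_55 genes 1 to 5 were at 2.41-fold to 6.52-fold, and at the high end of Kwal_47 genes 1 to 3 were at 3.67-fold to 5.84-fold and genes 5 to 8 at 2.71-fold to 5.34-fold. Kwal_56.22277, the outermost gene of the low end of Kwal_56, had the highest genomic DNA signal of all end genes, 15.4-fold over the median, and Kwal_56.22278 beside it was at 8.84-fold. The probes of Kwal_55.19504, Kwal_55.19506 and Kwal_56.22277 were rich in GC (53.6%, 52.7% and 51.8%), where the upper quartile of the end genes was 43.6%. The part of GC content in their genomic DNA signals was not tested.

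Of the 34 end genes with genomic DNA over 2-fold, 14 had a level under the median gene but an RNA signal over it, and 0 had the opposite. Of the named genes among the 14, the RNA signal in place of the ratio gave 0.79 for Kwal_55.19500, 2.92 for Kwal_55.19504, 2.78 for Kwal_55.19506, 1.41 for Kwal_55.22271 and 2.33 for Kwal_56.22277. For genes with several targets neither value is that of 1 gene, since the RNA signal also sums over the targets. Of the 34, 26 were called below. Of the 126 others, 73 were called below (57.9%), and the difference between end and interior medians was -1.65 without all genes over 2-fold. The low levels were thus present among end genes with ordinary genomic DNA signal. The share of all genes of either kind called below is not given here. The 26 and the 73 therefore do not set the ends against the array. After loess, which takes out the trend of the ratio with the mean of both signals, 39 of these 126 genes (31.0%) were called below, against 13% of all genes of this kind, and the difference was -0.46.

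**Figure D5:**
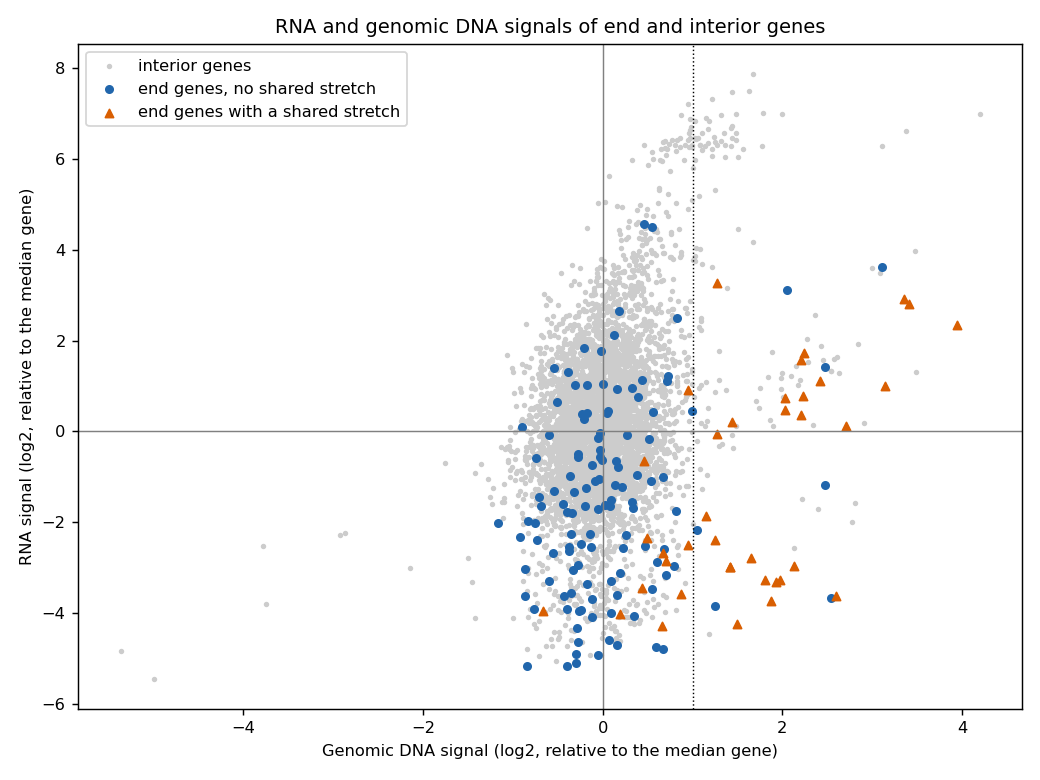
RNA signal (vertical) against genomic DNA signal (horizontal) of each gene, both log2 relative to the median gene and averaged over 4 arrays, for interior genes (grey), end genes whose probes share no stretch with another gene's probe (blue circles) and end genes that share one (orange triangles). The dotted line marks genomic DNA 2-fold over the median. Blue circles fill the lower middle of the plot, with low RNA at ordinary genomic DNA signal, and most triangles lie to the right of the dotted line, at both high and low RNA.

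Shared probe sequence linked many end genes to other genes. A stretch of 20 or more bases shared with a probe of another gene was present in 38 end genes (23.8%), against 1.84% of interior genes and 21.8% of genes of the smaller contigs. Of the 38, 24 shared it with another end gene (20 at another end, 8 at the same end), 27 with a gene of a smaller contig and 9 with an interior gene. A wholly identical probe was present in 17 end genes (10.6%) against 24 interior genes (0.514%) and 37 of the 367 genes of the smaller contigs, and 16 of the 17 were among genes 1 to 5. Such probes read the sum of the RNA and of the genomic DNA of all their genes, and their values are uncertain for each gene on its own. Of the 34 end genes with genomic DNA over 2-fold, 27 held a shared stretch and 7 did not.

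The linked group with the most end genes held 9 genes joined by shared stretches, 5 of them end genes and 4 of these outermost. These were Kwal_14.699, Kwal_23.2767, Kwal_33.15651, Kwal_47.19375 and, at place 3 of its end, Kwal_55.22265. The other 4 were Kwal_22.2746, Kwal_34.15670, Kwal_38.16359 and Kwal_60.24923, on small contigs. All 9 were called below, at -6.24 to -4.46, with genomic DNA 2.29-fold to 6.04-fold over the median gene. The probes of Kwal_23.2767, Kwal_33.15651 and Kwal_47.19375 were identical to each other and to those of Kwal_22.2746 and Kwal_38.16359. Thus sequences read by the same probes were placed at the outermost position of 3 large contigs, and RNA for the whole group was low.

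A second group joined Kwal_47.19372 and Kwal_55.22259, whose probes were identical to each other and to those of 4 genes on small contigs. These 6 genes lay between -5.88 and -5.62, and the RNA signal of Kwal_55.22259 was well above background on 3 of the 4 arrays. A shared stretch linked them also to the interior gene Kwal_23.3697, which had a level of -0.46 without a call. Its genomic DNA signal was only 0.031-fold the median and its RNA signal was -5.44 (log2), so that this ratio is uncertain. Another group held Kwal_23.6586, Kwal_26.6641, Kwal_26.9623 and Kwal_26.9632, at place 2 or 4 of 3 ends, and Kwal_48.19387 on a small contig. All 5 were called below, at -3.88 to -3.36, with genomic DNA between 1.35-fold and 1.93-fold. Kwal_26.6639 and Kwal_26.9628, at places 1 and 3 of the opposite ends of Kwal_26, were linked as well and had nearly equal levels of -4.42 ± 0.05 and -4.41 ± 0.14 and nearly equal genomic DNA signals, both 2.67-fold over the median.

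Another group of 9 genes was mixed. It held Kwal_14.761 and Kwal_55.22270, 6 interior genes and 1 gene of a small contig, at levels from -3.03 to 1.34, with 5 called below and 1 above. Other linked groups had ample RNA. Kwal_55.19504 and Kwal_55.19506 were linked to 3 genes of small contigs, and the 5 genes had genomic DNA 10.2-fold to 17.2-fold and RNA 2.12 to 2.97 (log2) over the median gene. Kwal_55.19513, Kwal_55.19514 and Kwal_56.22278, at the low ends of both contigs, formed a group of their own with RNA over the median in all 3 (0.36 to 0.998, log2). Groups of related end genes thus differed by up to several log2 units in RNA.

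Of the end genes with a shared stretch, 32 of 38 (84.2%) were called below, with a median level of -3.13. Among interior genes with a shared stretch, 29 of 86 (33.7%) were, with a median of -0.75. Of the 38 end genes, 17 held an identical probe, so the 38 are not all separate measurements. Of the end genes without a shared stretch, 67 of 122 (54.9%) were called below, with a median of -1.42, against 18.3% of the interior genes without one. Without the genes of a shared stretch, the difference between end and interior medians was -1.49, and the genomic DNA difference changed sign to -0.04. The raised median genomic DNA signal of the ends as a set was thus absent without the genes with related probes, whereas the lower level was also present in the others. Of the 38 end genes left out, 27 had genomic DNA over 2-fold, and the cause was not tested.

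The probes were also compared with those of the interior apart from shared sequence. The median GC content of the probes was 41.8% at the ends and 42.7% in the interior, and the median gap between the probes of a gene was 0.26 and 0.23 (log2). The probes disagreed by more than 2-fold in 7 of 157 end genes (4.46%) and in 3.67% of interior genes. The probes of a gene overlapped by 50 or more bases in 15.6% of end genes, 25% of genes 1 to 5 and 12.2% of interior genes, and such pairs say little about agreement. Among genes with less overlap they disagreed in 7 of 132 end genes (5.30%) and 4.17% of interior genes. Kwal_14.761, 10 genes from its end, had the widest gap, 3.32 on the log2 scale between its 2 probes, at -2.95, -3.06, -3.08 and -3.01. The median SD between arrays was 0.142 for end genes and 0.101 for interior genes. The part of GC content, probe agreement and low signal in the difference between end and interior was not tested.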

How the data were processed

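The deposited scanner files hold pixel intensity per spot and local background in both channels, which the authors extracted by means of Agilent Feature Extraction (version 10.1.1.1 per the file headers, another than in the methods). The deposited log10 ratio of red over green, after dye normalization by that software, was used with its sign turned as an alternative only. The genome build and the assembly behind the contigs are not given in the sources used here. The deposited table of gene values was not used here, since its rows carry running numbers.

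Following the methods, median local background was subtracted from median signal, log2 of Cy3 over Cy5 was taken, and the median over a gene's probes was quantile normalised. Beyond the methods, outlier spots on any array and spots without positive signal were left out first (10131 of 10386 gene probes used), and values were centred on the median gene. Quantile normalization gives genes of equal rank equal values (median SD of the end genes 0.129, against 0.142 with centring alone), so values of single genes are given after centring alone. Calls came from limma 3.58.1 in R 4.3.3 (treat, intercept alone, bound of 2-fold, two-sided, Benjamini-Hochberg adjustment over 5192 genes at 0.05), tested on simulated data. RNA and genomic DNA signals were centred in the same way. Whether RNA was well above background was taken from the scanner files.

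Named genes were the outermost gene of each end, the 3 highest and 3 lowest with 2 probes on 1 side of the median gene (the lowest well above background), the 3 with most genomic DNA, the longest runs called above and below, and those with the largest SD and widest probe gap. The members and lists were chosen with earlier results of these data known. The labels call the 4 samples separate RNA samples, and p-values measure the spread between them. Alternatives changed the background, normalization, probes, filters, bound of the test, genes per end, contigs and replicates. The number of arrays limits the precision.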

Additional observations from a re-analysis of the deposited data

Results flagged for a closer look

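Among 54 measures compared for an array far from the others (the differences between end and interior, the medians of the ends and the levels of the named genes), 2 passed Dixon's limit for 4 values, and chance alone passes about 1 in 20. Both belong to the low end of Kwal_26. The median level of its 10 end genes was -3.67, -3.79, -3.67 and -3.67 on arrays 1 to 4, with a ratio of gap to range of 0.942. Kwal_26.6669, 1 of these genes, had -4.40, -4.43, -4.26 and -4.42, with a ratio of 0.837. The whole range was 0.12 for the former, and every array left all 10 genes far under the median gene.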

How the results depend on the processing

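The count of 99 end genes called below stayed within 1.5 times under 31 of 32 alternatives, the smaller and larger sets of members being read as shares. It was 73 of 160 after loess (16.3% of all genes) and 79 in the scanner's log ratio (13.5%), 127 with a bound of 0 and 67 with a bound of 4-fold, and it was 95 to 98 without 1 replicate. The 13 genes called above became 6 after loess, 6 in the scanner's log ratio, 30 with a bound of 0, 3 with a bound of 4-fold, 3 of 80 with 5 genes per end and 47 of 320 with 20 genes per end. The shares of all genes called with bounds of 0 and 4-fold are not given here. The counts at these bounds therefore do not set the ends against the array. The level difference of -1.74 kept its sign throughout. It was -1.65 from RNA alone, -2.01 with normexp, -0.89 after loess, -1.11 in the scanner's log ratio, -1.64 without shared probes, -1.57 without dim genes, -2.37 with 5 genes per end, -0.98 with 20 and -1.62 with contigs of 100 or more genes. Leaving out a contig gave -1.53 (Kwal_23), -1.52 (Kwal_26), -2.003 (Kwal_27), -1.83 (Kwal_33), -1.82 (Kwal_55) and -1.94 (Kwal_56). In alternatives chosen after seeing the data it was -1.49 without genes of a shared stretch and -1.65 without genes of genomic DNA over 2-fold. Leaving out the latter together with loess gave -0.46, with 39 of 126 end genes (31.0%) called below and 6 above (4.76%). The genomic DNA difference of 0.15 depended more on the choice of genes: it was 0.078 without shared probes, 0.51 with 5 genes per end, 0.079 with 20, 0.20 without Kwal_14, 0.17 without Kwal_23, 0.126 without Kwal_27, 0.22 without Kwal_33, 0.075 without Kwal_55 and 0.18 without Kwal_56, and it turned to -0.036 without genes of a shared stretch and -0.020 without genes over 2-fold (both chosen after seeing the data). End genes with an identical probe numbered 16 of 80 with 5 genes per end and 19 of 320 with 20. Contigs of 400 or more genes were the same 8, the smallest of which holds 402. Of the alternative values for named genes, 536 kept their side of the threshold and of the median gene, 3 without a call changed side of the median gene, 20 passed it, 19 no longer did (7 of them after loess) and 11 turned. With RNA alone these were Kwal_55.19500 (0.79), Kwal_55.19504 (2.92), Kwal_55.19506 (2.78), Kwal_55.22271 (1.41) and Kwal_56.22277 (2.33). After loess they were Kwal_26.6664 (0.010), Kwal_27.12817 (-1.05), Kwal_27.12860 (-5.02) and Kwal_33.12946 (1.22), and in the scanner's log ratio Kwal_27.12817 (-0.10) and Kwal_27.12860 (-3.13). The 3 without a call were Kwal_23.6600 from RNA alone (0.44), Kwal_27.12860 with normexp (-0.76) and Kwal_33.12946 in the scanner's log ratio (0.91). The cause was not tested. No paired analysis was possible because there is 1 group, and the labels give no pairs of arrays within it.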
